A study of Mus musculus with 4 samples.

Results

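The genes described here are the exoribonuclease gene Dis3l2, the genes of noncanonical nucleotidyltransferases that add uridine or adenosine to RNA 3′ ends (Zcchc11, Zcchc6, Papd4, Papd5, Papd7, Mtpap and Tut1), and Lin28a. They were taken by symbol from the mRNA table of the series: 9 genes of 16469 names in 16470 transcripts. Each gene had 1 row, for 1 RefSeq transcript, although RefSeq lists up to 4 transcripts for a gene. All 9 passed the minimum value used for ratios between the immunoprecipitates, and 7 passed it between the inputs.

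The experiment asked which RNAs a mutant Dis3l2 protein binds in mouse embryonic stem cells. All cells were of the C57BL/6 strain at passages 25 to 30 and grew without feeder cells on gelatin with LIF and serum. They were transfected with FLAG-tagged mutant Dis3l2, whose mutation the labels do not name, or mock transfected, and the labels name no deletion of their own Dis3l2 gene. From each condition 1 input library was made after RiboMinus selection, which removes ribosomal RNA. Another was made from RNA recovered on anti-FLAG M2 gel (IP), for which the labels state no such selection. With 1 library per group, no difference below has a replicate check and no p-value is given. The exact 95% intervals given compare the libraries themselves. They hold the counting error alone, and copies made by PCR would widen them.

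Dis3l2 degrades RNA from its 3′ end and prefers ends that carry a run of uridines. The best known route to such ends in embryonic stem cells runs through Lin28a, an RNA-binding protein that holds the precursors of let-7 microRNAs and recruits Zcchc11 (Tut4) or Zcchc6 (Tut7), which add the uridines. The other nucleotidyltransferases are better known for other roles. Papd4 (Gld2, Tent2) adds adenosines in the cytoplasm, and Papd5 and Papd7 (Tent4b and Tent4a) act on RNA 3′ ends with a preference for adenosine. Mtpap makes the poly(A) tails of mitochondrial mRNA, and Tut1 adds uridines to U6 snRNA.

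Precursors of let-7 are shown because they are the textbook substrate of this route, and because they show which letters Lin28a is known to bind. GGAG, the core of the Lin28 site, was searched on the RNA strand in the part of each hairpin that follows the 5′ mature microRNA. It was present in 8 of 11 let-7 family hairpins and in 155 of 814 mouse hairpins searched the same way (19.0%). Capitals mark GGAG in the part searched only. The sequences are RefSeq's for GRCm38.p6 and run 5′ to 3′. Mirlet7g lies at chr9:106178840-106178927 and Mirlet7e at chr17:17830352-17830444, both on the plus strand. Mirlet7b, at chr15:85707319-85707403 on the plus strand, has no such letters in the part searched.
Mirlet7g: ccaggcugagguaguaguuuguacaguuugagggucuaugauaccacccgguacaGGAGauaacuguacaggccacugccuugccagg
Mirlet7e: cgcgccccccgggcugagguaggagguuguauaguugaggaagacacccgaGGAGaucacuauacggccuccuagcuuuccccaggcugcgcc
Mirlet7b: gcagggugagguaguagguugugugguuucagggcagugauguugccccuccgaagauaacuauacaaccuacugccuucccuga
Of this family only Mirlet7e had rows, 1 in each table. Both rows held 0 reads in all 4 libraries. The tables therefore give no level for a let-7 precursor.

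Depth in the mRNA table limited the inputs most. That table held 307324 reads in the mutant input and 291175 in the mock input, against 2275647 and 1860030 in the mutant and mock IPs. The series' table of noncoding transcripts held 2746737 and 2738512 reads in the mutant and mock inputs, and 3183346 and 2157604 in the IPs. The low input totals are thus those of the mRNA table. Lars2 alone took 33.3% to 58.6% of the reads of the mRNA table. The 9 genes together had 44 reads in the mutant input and 54 in the mock input, or 0.0143% (0.0104 to 0.0192) and 0.0185% (0.0139 to 0.0242) of the table. They had 744 in the IP of the mutant and 411 in that of the mock, or 0.0327% (0.0304 to 0.0351) and 0.0221% (0.02 to 0.0243). Without Lars2 in the denominator the 4 shares were 0.0215%, 0.0285%, 0.0681% and 0.0534%. The stem cell label was checked on 9 markers, all of which had reads in both IPs, 3465 in sum in the mutant and 2312 in the mock. Tdgf1, a Nodal co-receptor, had 1052 and 704 of these, and Pou5f1 (Oct4), a core pluripotency factor, 329 and 261. The mutant and mock inputs held 128 and 168 reads of the same markers, with Esrrb at 0 and 17 and Utf1 at 13 and 2. Markers of other lineages had fewer reads in sum but were uneven between the mutant and mock IPs. The 4 fibroblast markers in the table, of 6 listed, had 102 and 33 reads in sum, among them the collagen gene Col1a1 with 73 and 23 and Thy1 with 26 and 3, while Pdgfra had 3 and 6 and Col1a2 0 and 1. In the same IPs the stem cell marker Nanog had 70 and 39, in the mutant IP below Col1a1. The 3 endoderm markers, of 5 listed, had 20 and 26: Gata4 had 20 and 0, Afp 0 and 25, and Gata6 0 and 1. The 3 trophectoderm markers had 15 and 29, all of the keratin gene Krt8, while Cdx2 had 0 in all 4 libraries. In the mutant and mock inputs the sums were 16 and 10 for fibroblasts, 2 and 0 for endoderm and 2 and 3 for trophectoderm. The part of such differences in the results that follow was not tested.

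The order of the 4 libraries depended on their scaling. In the deposited values both IPs were above both inputs for all 9 genes, and the mutant IP was the highest for 7 genes and the mock IP for Papd7 and Mtpap. With libraries scaled to equal totals, both IPs were above both inputs for 4 genes: Lin28a, Papd4, Papd5 and Mtpap. The mutant IP was then the highest for Dis3l2, Zcchc11, Lin28a and Papd4, the mock IP for Papd5 and Mtpap, the mock input for Zcchc6 and Tut1, and the mutant input for Papd7. In the deposited values the IPs of Zcchc6, Papd5, Tut1, Papd7 and Mtpap did not differ beyond counting error.

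**Figure D1:**
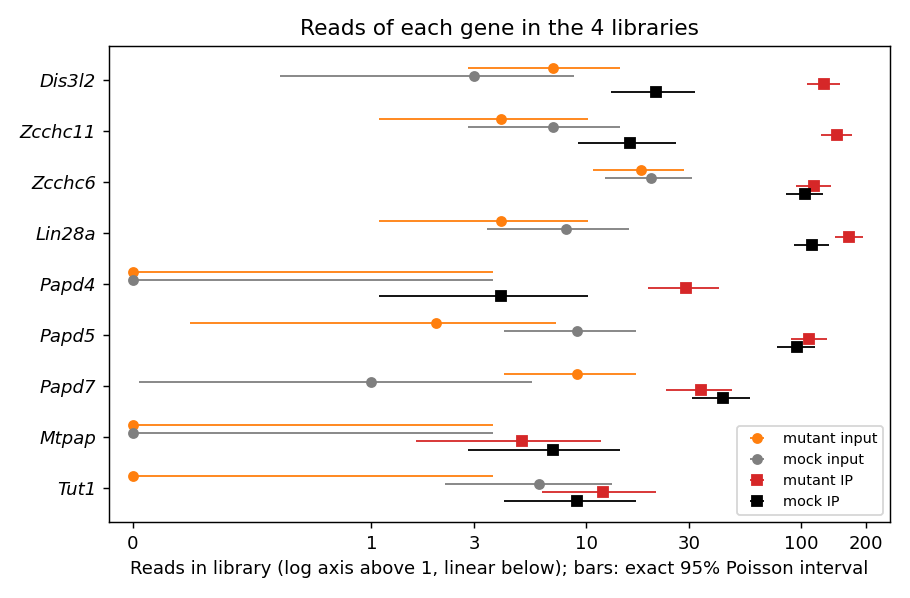
Reads of each of the 9 genes (rows) in both inputs and both IPs, on an axis that is logarithmic above 1 read, with exact 95% Poisson intervals. Dis3l2 and Zcchc11 have over 120 reads in the mutant IP and about 20 or fewer in the mock IP, whereas the IP points of Zcchc6 and Papd5 lie close together.

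Mutant IP was compared with mock IP to see which transcripts were recovered with the tagged protein. Of the 9 genes, 3 were at least 4-fold higher in the mutant IP (Zcchc11, Dis3l2 and Papd4) and 0 were lower, while the other 6 stayed within 4-fold. Over all 14273 transcripts tested, 10.1% were at least 4-fold higher and 5.74% lower. The median log2 ratio, taken on the deposited value plus 1, was 0.24 over the 9 genes and 0.38 over all transcripts. The other 6 genes had log2 ratios between -0.42 and 0.46. Library scaling changed the balance over all transcripts, from 1436 higher and 819 lower to 972 and 1171 with libraries centred on the median, and to 626 and 579 with equal totals outside Lars2. Centring lowered every log2 ratio of this comparison by 0.31.

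For the nuclease gene Dis3l2 the mutant IP held 127 reads and the mock IP 21. Its deposited values of 47.0 and 8.40 stood beside 3.89 and 1.20 for the mutant and mock inputs, so the mutant IP stood above the other 3. The ratio between the IPs was 5.60 (3.51 to 9.36), or 2.35 on the log2 scale with the pseudocount. With a pseudocount of 5 the log2 value was 1.96 and with equal totals outside Lars2 it was 1.93, both just under 4-fold. Reads from the transfected construct and from the cells' own gene cannot be told apart in these per-transcript values.

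Zcchc11, one of the 2 uridylyltransferases that Lin28a recruits, had 146 reads in the IP of the mutant and 16 in that of the mock. In deposited values this is 54.1 and 6.40, with 2.22 and 2.80 for the inputs. Its IP ratio of 8.45 (5.03 to 15.2) was the highest of the 9 genes, and its log2 value of 2.90 stayed past 4-fold, between 2.37 and 2.98, under the 5 alternatives that can change it, which are 2 pseudocounts and 3 scalings. Of the 9 genes it alone had a counting interval wholly above 4-fold, as 2.90% of all transcripts did; this call was chosen after the values had been seen. Its close relative Zcchc6, which takes part in the same step, had 115 and 104 reads and a ratio of 1.02 (0.778 to 1.35). The mutant and mock IP counts of Zcchc6 thus overlapped within counting error while those of Zcchc11 were far apart. The intervals of the ratios of the relatives do not meet. The log2 value of Zcchc6, 0.03, turned to between -0.14 and -0.35 under the 3 scaling alternatives.

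Papd4, the Gld2 poly(A) polymerase, had few reads: 29 in the IP of the mutant and 4 in that of the mock. Their ratio was 6.71 (2.36 to 26.3). Its log2 value of 2.17 fell below 4-fold with a pseudocount of 5 (1.25), after centring (1.86), with equal totals (1.80) and with equal totals outside Lars2 (1.69).

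The values of the remaining 5 genes were within 2-fold between the IPs. Lin28a was the deepest of the 9, with 167 and 112 reads in the mutant and mock IPs and a ratio of 1.38 (1.08 to 1.77). That excess was near the median of all transcripts, and its log2 value of 0.46 dropped to 0.07 with equal totals outside Lars2. Papd5 had 109 and 95 reads (ratio 1.06, 0.799 to 1.41), and its log2 value of 0.09 turned to between -0.09 and -0.29 under the scaling alternatives. Papd7, its paralog, had 34 and 43 reads (0.732, 0.453 to 1.18). Tut1 had 12 and 9 reads and Mtpap 5 and 7, with intervals of 0.477 to 3.32 and 0.166 to 2.42, so that a difference of 2-fold in either would not have been detectable at this depth.

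**Figure D2:**
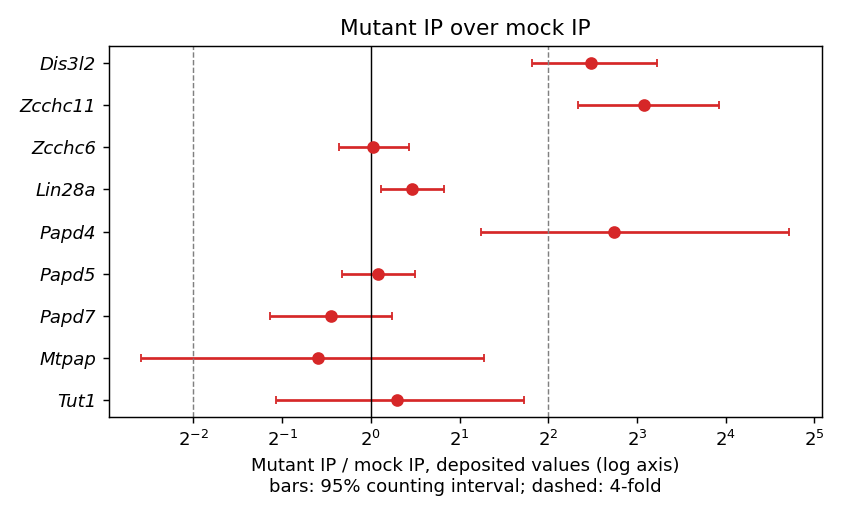
Ratio of the deposited values in the mutant IP and the mock IP for each gene, with exact 95% counting intervals, on a log axis; dashed lines mark 4-fold. Zcchc11 at 8.45 is the only gene whose interval lies wholly above 4-fold, and the intervals of Zcchc6, Papd5, Papd7, Mtpap and Tut1 include 1.

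Because few reads alone give large ratios, each gene was read against all transcripts of its own depth. With 10 to 29 reads over both IPs, 24.7% of transcripts were at least 4-fold higher in the mutant IP, with 30 to 99 reads 9.09%, and with at least 100 but under 300 reads 2.01%. Papd4 had 33 reads, and 340 of the 4630 transcripts in its range, itself included, had its log2 ratio or a higher one. Dis3l2 and Zcchc11 had 148 and 162 reads. Of the 3181 transcripts in their range, 27 were at or above Dis3l2 and 10 at or above Zcchc11, themselves included. The median log2 ratio of that range was 0.39, beside 0.46, 0.09 and 0.03 for Lin28a, Papd5 and Zcchc6, which have similar depth.

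**Figure D3:**
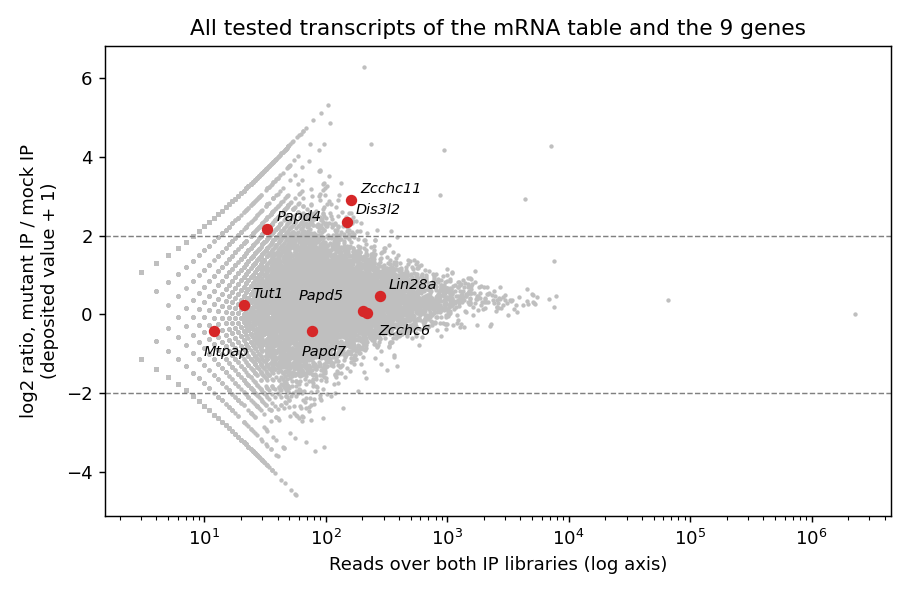
Each grey point is 1 of the 14273 tested transcripts, placed by its reads over both IPs (log axis) and its log2 ratio of mutant IP over mock IP; red points are the 9 genes and dashed lines mark 4-fold. The spread narrows with depth, and Zcchc11 (2.90) and Dis3l2 (2.35) sit at the upper edge at 162 and 148 reads, while Papd4 lies inside the spread at 33 reads.

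The inputs were compared to see whether the genes differed in the cells' RNA before recovery. No gene had more than 20 reads in an input, and Papd4 and Mtpap had 0 in both. Of the 7 genes tested, 2 were at least 2-fold higher in the mutant input (Papd7 and Dis3l2) and 2 lower (Papd5 and Tut1), against 37.0% and 21.8% of 9367 transcripts. After centring, the counts over all transcripts turned from 3463 higher and 2038 lower to 2043 and 2533. Dis3l2 had 7 reads in the mutant input and 3 in the mock input, and the interval of its ratio of 3.24, 0.740 to 19.4, includes 1. Papd7 had 9 and 1 (12.5, 1.73 to 548), and Papd5 2 and 9 (0.309, 0.0325 to 1.49). Tut1 had 0 and 6 reads and was 1.44-fold lower against a floor of 3 reads. The interval of its ratio, 0 to 1.18, includes 1. Zcchc11 had 4 and 7 reads, Lin28a 4 and 8, and Zcchc6 18 and 20, with ratios of 0.794, 0.694 and 1.25 whose intervals all include 1. Of these genes only Papd7 had an interval that leaves out 1, and it rests on 1 mock read. With a pseudocount of 5, 0 of the 7 passed 2-fold. Dis3l2, at 1.15 on the log2 scale, was also under 2-fold after centring (0.72) and with equal totals outside Lars2 (0.93).

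Each IP was then set against the input of its own condition. These ratios also set RNA with rRNA removed against RNA for which the labels state no such step, and their level depends on the scaling of the libraries. On the log2 scale with the pseudocount, 6 of the 9 genes were past 4-fold above input for the mutant and 5 for the mock, with 0 below in either. The 6 include Tut1, whose fold against the floor of 3 reads is under 4-fold. For the mutant 61.1% of all transcripts were above and 2.32% below, and for the mock 60.6% and 1.92%. Centring turned these counts from 8330 above and 316 below to 2882 and 1253 for the mutant, and from 7940 and 252 to 1996 and 1173 for the mock. Without scaling, a gene above input was thus the usual case in both conditions. After centring, 3 of the 9 genes (Zcchc11, Lin28a and Papd5) were past 4-fold for the mutant and 0 for the mock. Over all transcripts these were 2882 of 13637 and 1996 of 13111. Papd4 for the mutant (1.93) and Papd7 for the mock (1.94) were just under 4-fold on the log2 scale.

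Zcchc11 differed between the mutant and mock libraries. Its IP over input was 24.3 for the mutant (9.30 to 90.5) and 2.29 for the mock (0.890 to 6.57), on the log2 scale 4.10 and 0.96 beside medians over all transcripts of 2.44 and 2.32. It lay above that median in the mutant and below it in the mock. Its log2 value in the mock turned to between -0.71 and -1.29 under the scaling alternatives. Among transcripts of its own depth, itself included, 610 of 2381 had its mutant log2 ratio or a higher one. For the mock these were 3275 of 4032. Dis3l2 gave 12.1 for the mutant (5.70 to 30.7) and 7.0 for the mock (2.09 to 36.7), and the first interval lies inside the second. Under the 3 scalings both of its log2 values, 3.30 and 2.10, fell below 4-fold, to between 1.22 and 1.67 for the mutant and between 0.11 and 0.65 for the mock. Lin28a gave 27.8 for the mutant (10.7 to 103) and 14 for the mock (6.87 to 33.2). Papd5 gave 36.3 (9.82 to 304) and 10.6 (5.33 to 23.8). Among transcripts with at least 100 but under 300 reads, the median log2 ratio was 3.12 for the mutant and 3.18 for the mock. Beside these, Lin28a had 4.29 and 3.45 and Papd5 4.29 and 3.08, so in the mock both were near the median of their depth. For both genes the call for the mutant held under the 3 scalings, while that for the mock was lost, at between 1.07 and 1.69 on the log2 scale for Lin28a and between 0.69 and 1.33 for Papd5.

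Zcchc6 gave 4.26 over its input for the mutant (2.58 to 7.44) and 5.20 for the mock (3.20 to 8.86), on the log2 scale 1.99 and 2.24, below the median of all transcripts in both. With equal totals these log2 values turned to -0.20 and -0.29. Papd7 ran the other way from Zcchc11, with 2.52 for the mutant (1.18 to 5.97) and 43.0 for the mock (7.32 to 1740), where the mock input held 1 read. Papd4 and Mtpap had no input reads. Against the floor of 3 input reads, Papd4 stood at 6.44-fold in the mutant and 1.33-fold in the mock, and Mtpap at 1.11-fold and 2.33-fold. The lower ends of the exact intervals were 4.91 and 0.66 for Papd4 and 0.611 and 1.44 for Mtpap. Tut1 stood at 2.67-fold against the floor in the mutant (exact lower end 1.85) and at 1.5 times in the mock (0.477 to 5.12). For Mtpap these folds say little, because its IPs held 5 and 7 reads.

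**Figure D4:**
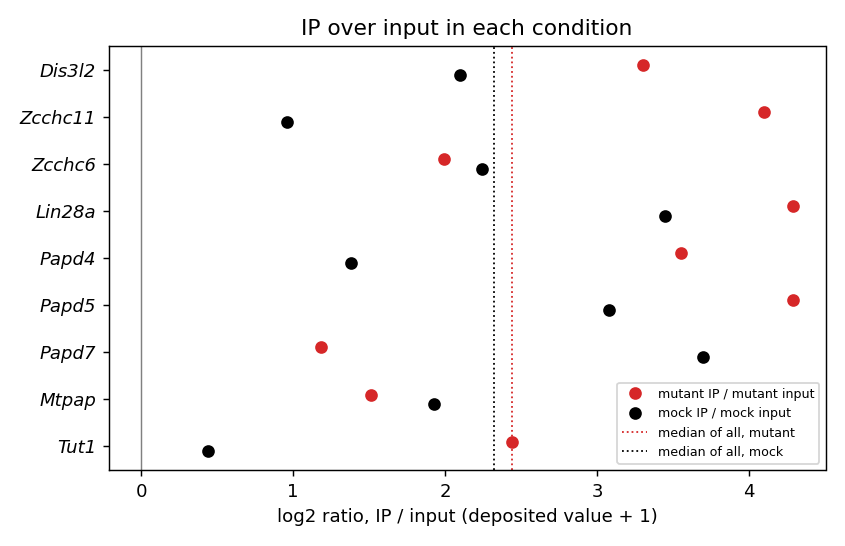
log2 ratio of IP over input (deposited value + 1) for each gene in the mutant (red) and in the mock (black); dotted lines are the medians over all tested transcripts, 2.44 and 2.32. The widest gaps between the conditions are those of Zcchc11, Papd4 and Tut1, where the mutant is higher, and of Papd7, where the mock is higher.

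The specific IP enrichment, the ratio of the mutant's IP over input to that of the mock, combines all 4 libraries. Zcchc11, Papd4 and Tut1 were at least 4-fold higher and Papd7 at least 4-fold lower, so 3 of 9 were higher and 1 lower, against 13.8% and 10.6% of 15060 transcripts. The median over the 9 genes was 1.20 on the log2 scale and that over all transcripts 0.13. Zcchc11 gave 10.6 (2.34 to 53.5), or 3.13 on the log2 scale, and stayed past 4-fold under the same 5 alternatives, between 2.48 and 3.42. Dis3l2, with more mutant than mock reads in both the IPs and the inputs, gave 1.73 (0.265 to 8.28), and a specific enrichment was not detectable at this depth.

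Few reads lay behind the other calls. Papd4, at 2.17 on the log2 scale, had no input reads, so this value repeats that between the IPs. Tut1 reached 2.01 through 0 and 6 input reads, and Papd7 -2.52 through 9 and 1, a ratio of 0.0586 with an interval of 0.00131 to 0.469. Zcchc6, Lin28a and Papd5 gave ratios of 0.819 (0.387 to 1.74), 1.99 (0.516 to 9.21) and 3.44 (0.684 to 33.3), all with intervals that include 1. Mtpap, with no input reads, gave -0.42.

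Genes of the surrounding pathways were set beside the 9. Of 20 genes of 3′ exonucleases and the RNA exosome, 1 was at least 4-fold higher in the mutant IP and 0 lower (median log2 ratio 0.20). The gene that passed was Exosc7, an exosome core subunit gene, at 15 and 0 reads. It was 4.63-fold higher against the floor of 3 reads, and the lower end of its exact interval was 3.32. The paralogs of Dis3l2 had no such ratio: Dis3, the catalytic subunit of the nuclear exosome, which had the most reads of the list over the 4 libraries, had 75 and 97 reads in the IPs (0.716, 0.522 to 0.978), and Dis3l, its cytoplasmic counterpart, 20 and 30 (0.617, 0.332 to 1.12). The intervals of both lie wholly below that of Dis3l2. Dis3 and Dis3l also had 7 and 4 reads in the mutant input and 11 and 0 in the mock input. Pan2, of the deadenylase complex, had the most reads over the IPs alone, 121 and 57, and gave 1.97 (1.42 to 2.74).

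Of 14 measured genes of 5′ decay and Lsm proteins, which include partners of oligouridylated mRNA, 0 were higher and 0 lower (median 0.24), and the deepest, Edc4, had 157 and 220 reads (0.661, 0.535 to 0.815). Of 19 measured genes of let-7 and other microRNA biogenesis, 0 were higher and 0 lower (median 0.67). Its deepest gene, the helicase gene Ddx17, gave 1.29 (1.19 to 1.41). Lin28b, the paralog of Lin28a, had 17 reads against 4 (3.94, 1.28 to 16.1) and 0 in both inputs. Of 16 other nucleotidyltransferases and partners 1 was higher and 0 lower (median 0.20). This was Fam46a, at 11 and 0 reads and past 4-fold on the scale with the pseudocount. Against the floor of 3 reads it was 3.40-fold higher, and the lower end of its exact interval was 2.32. Papola, the canonical nuclear poly(A) polymerase and the deepest of that list, gave 1.28 (1.08 to 1.52). Some genes of these pathway lists passed 4-fold in the ratio of values but not with the pseudocount. With reads in both IPs these were Cpeb2 (27 and 5 reads, 5.0, 1.9 to 16.6), Papolb (15 and 3, 4.63, 1.31 to 24.9) and Lsm3 (13 and 3, 4.01, 1.1 to 22.0). All these shares are to be read beside the 10.1% and 5.74% of all transcripts.

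**Figure D5:**
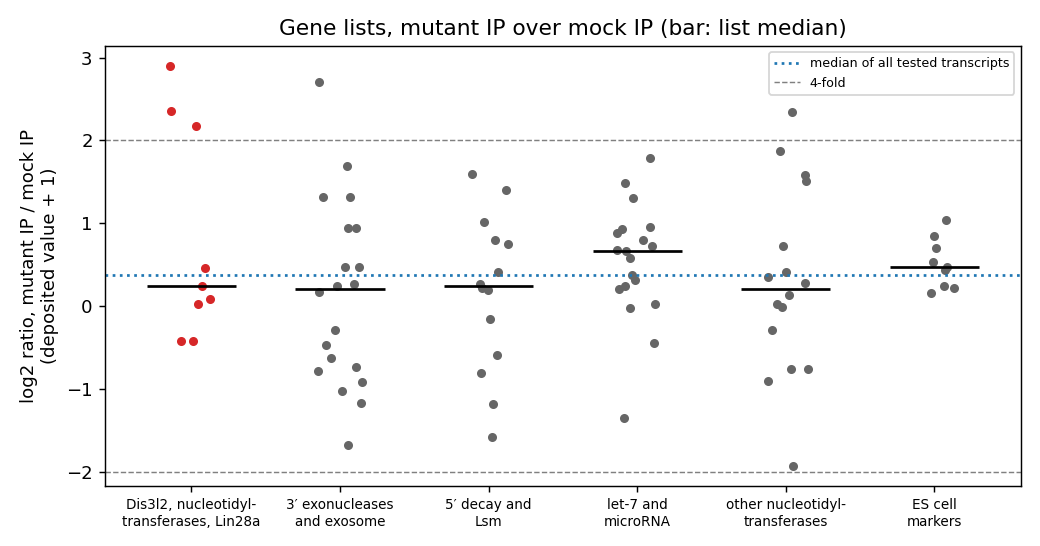
log2 ratio of mutant IP over mock IP (deposited value + 1) for each measured gene of the 9 genes (red), 4 pathway lists and the stem cell markers (grey); bars are list medians, the dotted line is the median of all tested transcripts, 0.38, and dashed lines mark 4-fold. The list medians lie between 0.20 and 0.67. Above the upper dashed line lie 3 of the 9 genes, and Exosc7 (2.71) and Fam46a (2.34) of the pathway lists.

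Over the 4 libraries, likeness was measured as the Euclidean distance between log2(value + 1) profiles, each centred on its own mean, among 11015 transcripts with at least 20 reads in all. The profiles nearest to Dis3l2 were those of Hsf1, the heat shock transcription factor (distance 0.13), Ubl5 (0.15) and the zinc finger gene Zfx (0.25), with 58, 49 and 56 reads in the mutant IP against 9, 7 and 10 in that of the mock. Nearest to Zcchc11 were Mpp2 (0.14), the germ cell gene Tex15 (0.19) and the cilium gene Wdr19 (0.20), with 108, 43 and 37 against 13, 3 and 3. Mtpap had too few reads to enter. Among the other 8 of the 9 genes, Papd4 was the nearest to both, 184th for Dis3l2 at 0.86 and 60th for Zcchc11 at 0.54. Dis3l2 and Zcchc11 were 1.07 apart, and 549 transcripts were closer to Dis3l2 than Zcchc11 was. Many transcripts thus share these 4-library profiles, and several of the nearest had 0 reads in an input.

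Overlapping genes could add reads, since the sources used here do not give the use of strand in counting. In RefSeq's GRCm38.p6 gene table, 3 of the 9 genes overlap another annotated gene: Dis3l2 overlaps 2 and Zcchc11 6, and Zcchc6 overlaps the lncRNA gene Etohd2. In the mRNA table Etohd2 had 22 and 7 reads in the mutant and mock IPs and 0 in both inputs, beside 115 and 104 IP reads of Zcchc6. Of the 6 genes that overlap Zcchc11 only the predicted snRNA Gm24967 was matched to a row, with 2 and 1 IP reads. No row was matched to the genes that overlap Dis3l2.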

How the data were processed

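The deposited data are a table of 16470 RefSeq transcripts and one of 6311 noncoding Ensembl transcripts, each with the 4 libraries as columns. The second served only for let-7, overlapping genes and its read totals. Per the submitters' processing notes, reads were aligned with Bowtie to mm9. The sources used here do not give the counting tool, the use of strand or how multiple alignments were treated. The authors' values are a signal: 100% were whole reads, within 0.02 reads, divided by 1.8 (mutant input), 2.5 (mock input), 2.7 (mutant IP) or 2.5 (mock IP), factors whose meaning is not given. They are not per transcript length, so levels were not compared between genes. No count test was run on the recovered reads, since 1 library per group gives no spread.

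log2 ratios used a pseudocount of 1 and transcripts with a value of at least 1 in any library of the ratio; they understate the change of low transcripts. Transcripts at least 4-fold apart were counted, or 2-fold between inputs. Intervals of ratios are exact conditional binomial and those of the specific enrichment exact conditional odds ratio intervals. A fold against 0 reads was taken against 3 reads in that library. It leaves out the counting error of the other library, so it is not a lower limit. Members and lists were chosen with earlier results of these data known. Named were all 9 genes; of each list, the gene with the most reads over the 4 libraries and genes past 4-fold with at least 20 IP reads; and the 3 profiles nearest to Dis3l2 and Zcchc11. Exosc7, Fam46a, Dis3l, Pan2, Lin28b, Cpeb2, Papolb, Lsm3, Pou5f1, Nanog, Esrrb, Utf1, Pdgfra, Col1a2, Cdx2 and Gata6 were named after their values were seen. Scripts were tested on simulated data and ran in Python 3.11.15 with pandas 2.3.3 and SciPy 1.17.1.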

Additional observations from a re-analysis of the deposited data

Results flagged for a closer look

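Etohd2, a lncRNA gene that overlaps Zcchc6, showed a signal in the noncoding table, which the comparisons above do not use. Its transcript ENSMUST00000162450.1 had 17 and 2 reads in the mutant and mock IPs. The ratio of the values was 7.87 (95% counting interval 1.87 to 70.2), above the level of the mock control, while its other listed transcript had 5 and 5 reads. Its row in the mRNA table had 22 and 7. At 10 to 29 reads over both IPs, 24.7% of transcripts of the mRNA table were at least 4-fold higher in the mutant IP, so such a ratio is not rare at this depth. Whether its reads and those of Zcchc6 share sequence was not tested.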

How the results depend on the processing

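Each comparison was repeated with pseudocounts of 0.5 and 5, with libraries centred on the median or scaled to equal totals with and without Lars2, with a minimum value of 5 or none, and with the sum or the lowest of a gene's transcripts. By construction the minimum cannot change a single gene's ratio, nor can the transcript choice, since each gene has 1 transcript. Of 373 repeated values of single genes, these included, 323 stayed within their counting interval or at their value and 49 left it. A further 1 called value changed sign: Zcchc6 in mock IP over mock input, at -0.29 with equal totals. Papd4 and Mtpap had no input reads, so their specific enrichment had no bounded interval to leave. Their values are counted among the 323. Of the 9 genes, 3 passed 4-fold between the IPs, but 1 did with a pseudocount of 5, with equal totals outside Lars2, or when the whole interval had to pass, a call added after the data had been seen. The following other counts of the 9 genes moved over 1.5 times. Mutant IP over input had 3 after centring against 6. Mock IP over input had 3 with a pseudocount of 5, 0 after centring and 1 with either equal total, against 5. The inputs had 0 with a pseudocount of 5 against 4 of 7 tested, and 1 of 2 tested with a minimum of 5. The specific enrichment had 1 with a pseudocount of 5 against 4.

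Over all transcripts, calls between the IPs went from 2255 of 14273 to 3490 and 100 with pseudocounts of 0.5 and 5. They were 1147 and 1205 with equal totals with and without Lars2 and 623 by the interval. With a minimum of 5 they were 1409 of the 10859 still tested. In mutant IP over input, 8646 calls became 3939 with a pseudocount of 5, 4135 after centring, and 5457 and 5486 with equal totals with and without Lars2; in mock IP over input, 8192 became 3184, 3169 and 5191 for the first 3 of these. Between inputs, 5501 of 9367 became 916 with a pseudocount of 5. With a minimum of 5, 1674 of the 3633 still tested were called. For the specific enrichment, 3672 became 5781 and 290 with pseudocounts of 0.5 and 5. A minimum of 5 also left fewer transcripts to test. The cause of the other shifts was not tested. No paired analysis was possible because each group has 1 library. Depth limits the inputs most, with 20 reads or fewer per gene.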
